A study of Mus musculus with 36 samples.

Results

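The 10 genes described here encode the proteins that build and regulate the mineral of bone matrix. They are Ibsp, Spp1, Dmp1, Mepe, Bglap, Bglap2, Sparc, Alpl, Phospho1 and Phex, chosen by symbol from the 30205 genes to which the transcript estimates of 36 mouse RNA-seq libraries were summed. The libraries form 6 groups of 6, made by genotype and cell type. All mice were 20 weeks old and were either wild-type controls (WT) or Mir324-null (null), that is, without the gene of the microRNA miR-324. Bone marrow macrophages (BMM) were grown from marrow with M-CSF, the macrophage growth factor, first 100 ng/mL for 3 days and then 30 ng/mL for 5 days. Osteoclast cultures (OC) received in those last 5 days RANK-L at 50 ng/mL as well, the cytokine that turns macrophages into bone-resorbing osteoclasts. Osteoblast cultures (OB) grew out of collagenase-digested leg bone chips over about 6 weeks and then spent 18 days in osteogenic medium with 2 mM beta-glycerophosphate and 50 µg/mL ascorbic acid. All 6 groups are primary cultures, so each can hold more than 1 cell type. The labels do not say whether the 6 libraries of a group came from separate mice, so the p-values measure the spread between these libraries, which may be partly technical.

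Bone mineral is calcium phosphate laid down in a collagen I matrix. Ibsp (bone sialoprotein), Spp1 (osteopontin), Dmp1 and Mepe belong to the SIBLING family, acidic secreted phosphoproteins that bind mineral and, through an RGD motif, integrins. Bglap and Bglap2 encode osteocalcin, a small protein that binds calcium through residues modified by a vitamin K-dependent enzyme, and it is a classical product of mature osteoblasts. Sparc (osteonectin) binds collagen and calcium. Alpl, the tissue-nonspecific alkaline phosphatase, removes the mineralization inhibitor pyrophosphate, and Phospho1 is a phosphatase that releases phosphate inside matrix vesicles. Phex is a membrane endopeptidase of osteoblasts and osteocytes that protects mineralization, and its loss causes a hypophosphatemic rickets.

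In the GRCm38 genome with GENCODE M21 genes, the 4 SIBLING genes lie close together on the plus strand of chromosome 5. Dmp1 spans 104202613 to 104214102, Ibsp 104299171 to 104311469, Mepe 104325329 to 104338611 and Spp1 104435118 to 104441050. The osteocalcin genes are tandem copies on the minus strand of chromosome 3, with Bglap at 88383501 to 88384464, Bglap2 at 88377736 to 88378699 and the third copy, Bglap3, at 88368616 to 88372743. Sparc (55394500 to 55423183, minus strand) and Phospho1 (95824499 to 95832140, plus strand) are on chromosome 11. Alpl is on chromosome 4 (137741733 to 137796384, minus strand) and Phex on chromosome X (157162075 to 157415312, minus strand).

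The microRNA that the null mice lack gives 2 mature products, shown from RefSeq (GRCm38.p6, chromosome 11, plus strand) with the seed, bases 2 to 8, in capitals because it is the part that pairs with targets.
miR-324-5p: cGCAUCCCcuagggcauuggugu
miR-324-3p: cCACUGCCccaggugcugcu
The 7-base match to the first seed, GGGATGC, occurred in the longest annotated 3′ UTR of none of the 10 genes, against 7.9% of 21805 genes with a 3′ UTR. The match to the second, GGCAGTG, occurred in 1 of the 10, Phospho1, against 13.7% of those genes. That match is at base 244 of the 831-base 3′ UTR of the longest Phospho1 transcript, at 95831545 to 95831567 on chromosome 11 for the stretch shown here, with the match in capitals.
Phospho1 match: ggaaggcaGGCAGTGcccctcga
A seed match is a description of the letters in the UTR and not evidence of binding. No value of Mir324 was analysed here, and genotypes are therefore taken from the labels alone.

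The osteocalcin copies are shown because their likeness limits how reads can be split between them. The first 90 coding bases follow, with the bases that differ in capitals.
Bglap: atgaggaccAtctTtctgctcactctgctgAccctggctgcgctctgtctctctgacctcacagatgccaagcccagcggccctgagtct
Bglap2: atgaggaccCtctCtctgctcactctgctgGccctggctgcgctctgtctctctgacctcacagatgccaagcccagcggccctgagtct
Counted from base 1 of the start codon, with the Bglap base first, the differences over the whole 288-base coding sequence are A10C, T14C, A31G and T273C, an identity of 98.6%. Of the 410 stretches of 31 bases in this Bglap transcript, 80.5% also occur in that of Bglap2. The values of Bglap and Bglap2 are therefore given singly and, with Bglap3, as a sum.

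The promoters of 9 of the 10 genes were found in RefSeq (GRCm38.p6), some with 2 start sites, and were searched from 250 bases before to 50 after the start for the core motif of the Runx factors, TGTGGT, on both strands. The motif occurred in 5 of these 12 promoters and in 16.8% of 32851 mouse promoters of the same length. It was found for Bglap, Spp1, Mepe, Sparc and the second start of Dmp1, and the letters did not occur in the windows of Ibsp, Alpl, Phospho1 or Phex. The 250 bases before the starts of Bglap and Ibsp are shown because Runx2 is the osteoblast master regulator and these genes are classical osteoblast products. Capitals mark the motif, read on the opposite strand as ACCACA, at base -132 of Bglap (chr3:88384467-88384716, minus strand), and Ibsp is at chr5:104299037-104299286, plus strand.
Bglap promoter: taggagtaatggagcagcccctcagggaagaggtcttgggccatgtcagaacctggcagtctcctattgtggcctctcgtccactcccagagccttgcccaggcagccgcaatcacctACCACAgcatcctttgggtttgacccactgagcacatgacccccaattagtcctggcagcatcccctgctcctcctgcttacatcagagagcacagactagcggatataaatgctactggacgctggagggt
Ibsp promoter: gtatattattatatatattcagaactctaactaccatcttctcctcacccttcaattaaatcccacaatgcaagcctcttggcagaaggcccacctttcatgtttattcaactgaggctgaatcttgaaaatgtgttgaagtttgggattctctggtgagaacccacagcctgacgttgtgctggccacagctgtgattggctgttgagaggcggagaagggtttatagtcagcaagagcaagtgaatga

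Library totals ran from 14118972 to 26347581 estimated counts, and from 17048358 to 23598922 in OB. Levels are given as CPM, counts relative to the library total, on one scale over all 36 libraries, as mean ± SD of 6 libraries. The OB libraries carried osteoblast markers, with Col1a1 at 36150 ± 6196 CPM in WT OB and 64374 ± 5330 in null OB and Sp7 at 22.5 ± 6.29 and 35.8 ± 16.0. They also carried macrophage and osteoclast transcripts. The 8 macrophage markers summed to 12106 to 15206 CPM in WT OB and 6580 to 9699 in null OB, and 6 of the 8 were lower in null OB at an adjusted p under 0.05. The 8 osteoclast markers summed to 3913 to 5001 and 4731 to 7209 CPM, with 3 higher. The 6 chondrocyte markers summed to 417 to 883 CPM in WT OB and 1064 to 2658 in null OB, with 4 of the 5 tested higher. These were led by Col2a1 at 198 ± 73.8 against 1023 ± 452 CPM and Acan at 48.1 ± 9.37 against 119 ± 25.4. Over all genes tested between these groups 32.5% were called in either direction, so 3 of 8 osteoclast markers is near that share. The part of macrophages, osteoclasts and chondrocytes in the results below was not tested. In bulk RNA more cells of a type and more RNA per cell cannot be told apart. The null OC libraries differed from their label in their defining markers. Ctsk, the collagen-degrading protease of osteoclasts, was at 80.3 ± 69.6 CPM in null OC and 13914 ± 584 in WT OC, and Acp5 at 96.1 ± 35.4 and 7098 ± 157, so "OC" below names the culture condition.

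In WT osteoblast cultures the 10 genes differed widely in level per transcript length. In TPM, a relative transcript level that corrects for length, Ibsp led at 10640 ± 1767, followed by Spp1 at 10446 ± 3273 and Sparc at 6076 ± 849. A gap separated them from Bglap2 at 140 ± 52.3 TPM, Alpl at 132 ± 60.0 and Bglap at 107 ± 32.6. Phospho1 followed at 24.9 ± 6.92 TPM and Dmp1 at 1.29 ± 1.02, while Mepe at 0.173 ± 0.147 and Phex at 0.133 ± 0.0661 were at the lower limit of these libraries. The ranges of the 6 WT libraries overlapped between Ibsp and Spp1, Spp1 and Sparc, Bglap2 and Alpl, Alpl and Bglap, and Mepe and Phex, so the order within these pairs is not settled. Ibsp alone took 1.11 to 1.72% of all counts in WT OB and 1.33 to 2.98% in null OB. In null OB, Ibsp at 20041 ± 5120 TPM stood above Spp1 at 9362 ± 2282, with 1 of its libraries, at 11603 TPM, inside the Spp1 range.

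**Figure D1:**
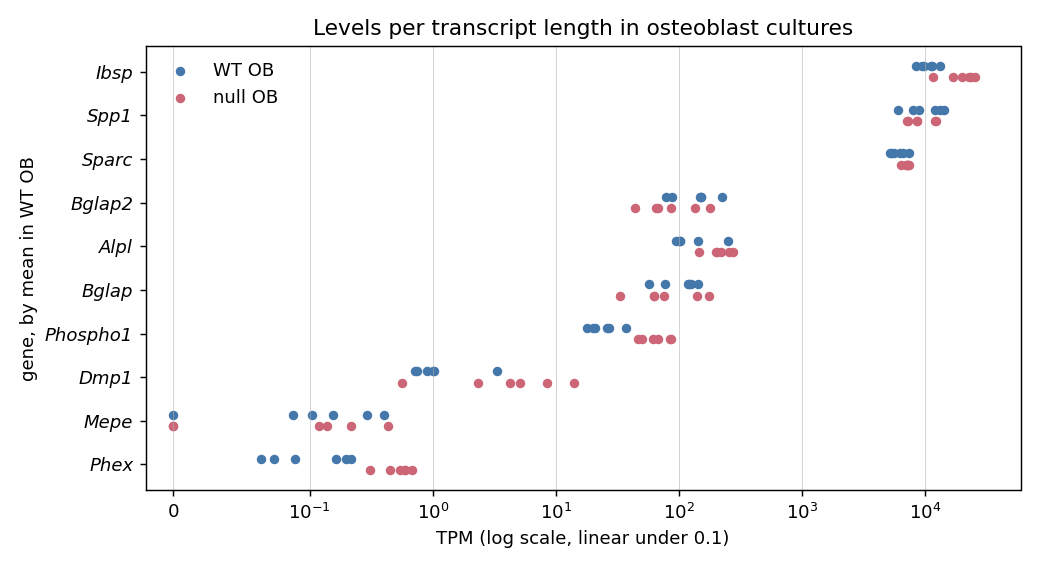
TPM of the 10 genes in the 12 osteoblast libraries (horizontal axis, log scale that is linear under 0.1), ordered by the mean in WT OB, each point 1 library, WT in blue and null in red. Ibsp, Spp1 and Sparc lie far above the other genes in all libraries, and Mepe and Phex under 1.

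Between genotypes, the clearest differences in osteoblast cultures were in Phospho1 and Ibsp, which rose in null OB. Phex was also called higher, near the detection limit, and Dmp1 passed the test with a wide spread. edgeR's quasi-likelihood test, with Benjamini-Hochberg adjustment over all 13607 genes tested, called 4 of the 9 genes that passed the filter on low counts. All 4 were higher in null OB. Of these, Phex passed that filter through the null libraries, where it is high, so its direction adds nothing to this count. The background is 32.5% of all genes tested, 2115 higher and 2305 lower. The median log2 fold change of the 9 was 0.55, and that of all genes tested 0.002. Alpl, Spp1, Bglap, Bglap2 and Sparc were not called, and Mepe had too few counts for a test.

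**Figure D2:**
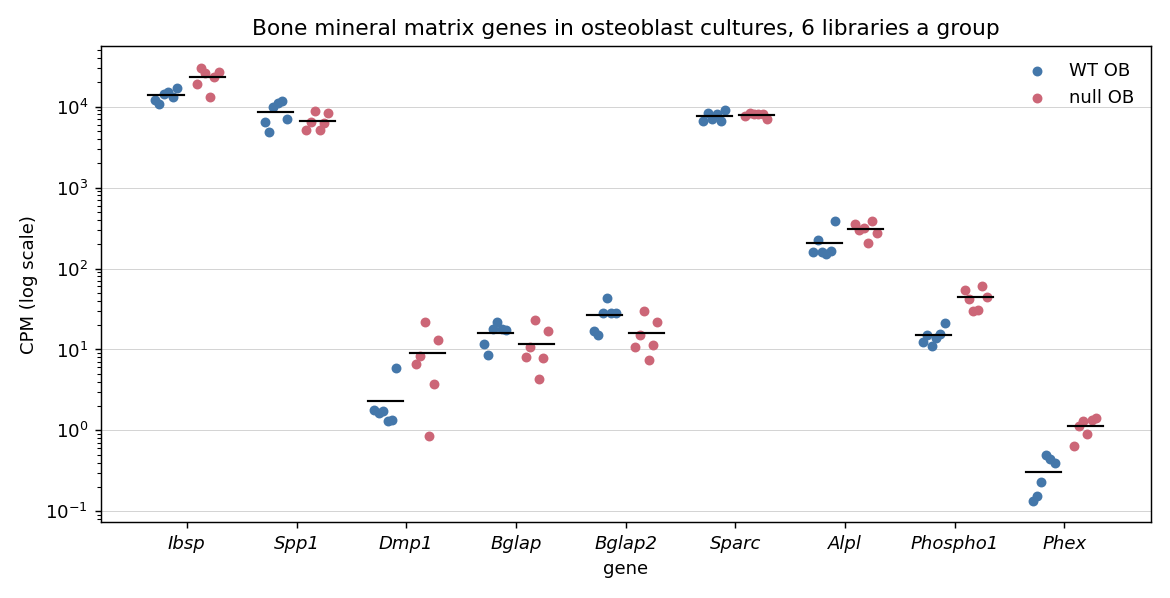
CPM (log scale) of 9 of the genes in osteoblast cultures, each point 1 library, bars the mean of 6 libraries, WT in blue and null in red. The null points of Phospho1 and Phex lie above all WT points, while those of Spp1, Bglap, Bglap2 and Sparc overlap them.

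Among the SIBLING genes, Ibsp ranged over 10905 to 17159 CPM in WT OB, with a median of 13705, and over 13241 to 30321 in null OB, with a median of 24522. In 5 of 6 null libraries Ibsp was above every WT library, and null replicate 4 was inside the WT range. The means were 13810 ± 2245 and 23015 ± 6088 CPM, a log2 fold change of 0.73 ± 0.17 (SE) at an adjusted p of 0.00598. The call held in each of the 12 fits that left out 1 library, with log2 fold changes of 0.65 to 0.86. In a single fit of all 36 libraries the log2 fold change was 0.74 and the adjusted p was 0.370. Without null OC replicate 6, a library with 497 Ibsp counts where the other 5 of its group had 0 to 2, that fit gave an adjusted p of 0.00019.

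Dmp1, which is typical of osteocytes and is needed for their mineralized matrix, was scarce. It gave 24 to 120 counts in WT OB and 16 to 454 in null OB. In CPM it ran from 1.31 to 5.89 in WT OB, with a median of 1.69, and from 0.856 to 22.1 in null OB, with a median of 7.46. In 4 null libraries it was above all WT libraries, and in 1, replicate 4, below them all. The log2 fold change was 1.97 ± 0.65 (SE) at an adjusted p of 0.0379, and this call is unstable. Of the 12 fits that left out 1 library, 4 kept it, and it was lost with an offset for transcript length (adjusted p = 0.0662), with limma-voom (0.0916) and without the filter on low counts (0.0714).

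Spp1, the other abundant SIBLING gene, was at 4917 to 11776 CPM in WT OB, with a median of 8419, and at 5112 to 8883 in null OB, with a median of 6345. The groups overlapped, and the log2 fold change of -0.35 ± 0.22 (SE) at an adjusted p of 0.269 did not pass the test. Ibsp and Spp1, which lie in the same cluster on chromosome 5 with Mepe between them and had similar levels in WT OB, thus gave estimates of opposite sign, of which only the first was called. Mepe, a gene of osteocytes, gave 0 to 7 counts a library in WT OB and 0 to 8 in null OB, and a difference was not detectable at this depth.

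The osteocalcin genes did not pass the test in either direction. Bglap was at 8.61 to 21.9 CPM in WT OB (median 17.5) and at 4.28 to 23.1 in null OB (median 9.32), so the null range spanned the WT range. Its log2 fold change was -0.43 ± 0.37 (SE) at an adjusted p of 0.411, and with an offset for transcript length it was 0.0048 (adjusted p = 0.995). Bglap2 was at 14.9 to 43.0 CPM in WT OB (median 28.3) and 7.33 to 29.7 in null OB (median 13.2), with a log2 fold change of -0.74 ± 0.35 (SE) at an adjusted p of 0.132. Leaving out null replicate 3, the highest null library, brought Bglap2 past the threshold, with an adjusted p of 0.0390. Summed over the 3 copies, osteocalcin was at 46.7 ± 16.1 CPM in WT OB and 30.3 ± 16.1 in null OB, a log2 fold change of -0.63 ± 0.35 (SE) at an adjusted p of 0.194. Bglap made up 37.8 ± 2.50% of the counts of Bglap plus Bglap2 in WT OB and 41.5 ± 2.69% in null OB, a difference of 3.72 percentage points (two-sided exact permutation test, p = 0.0346). The split was estimated by the quantifier from the few bases that differ, and 7 of 12 tests that left out 1 library gave a p above 0.05.

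Sparc was the steadiest of the abundant genes. It was at 6613 to 9118 CPM in WT OB (median 7569) and 6998 to 8416 in null OB (median 8116), with the null range inside the WT range. The log2 fold change was 0.05 ± 0.08 (SE) at an adjusted p of 0.710. Its coefficient of variation was 13.1% in WT OB and 6.38% in null OB, against 32.6% and 23.9% for Spp1.

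Of the 3 enzymes, Phospho1 showed the smallest adjusted p among the members. It was at 11.1 to 21.5 CPM in WT OB (median 14.6) and at 29.8 to 60.5 in null OB (median 43.8), with no overlap. The means of 14.9 ± 3.61 and 44.0 ± 12.4 CPM gave a log2 fold change of 1.55 ± 0.20 (SE) at an adjusted p of 0.000128, and all 12 fits that left out 1 library kept the call. The last exon of Phospho1 lies inside the last exon of a gene on the opposite strand, Abi3, which codes for an adaptor protein of the actin cytoskeleton. Of the 1910 bases of the longest Phospho1 transcript, 83.2% are shared with the main Abi3 transcript in this way. The sources used here do not say whether the counting used strand, so reads there cannot be assigned with certainty. A transcript of Zfp652 on the same strand that runs into Phospho1 was at 0.194 ± 0.146 CPM in WT OB and 0.275 ± 0.231 in null OB. Abi3 itself was at 31.1 ± 2.88 CPM in WT OB and 29.3 ± 3.06 in null OB (log2 fold change -0.09, adjusted p = 0.412). The 590-base transcript of Phospho1, which shares 45.6% of its bases with Abi3, was at 3.28 ± 0.700 CPM in WT OB and 6.67 ± 1.98 in null OB, with all null libraries (4.27 to 9.27) above all WT libraries (2.52 to 4.21).

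The share of Phospho1 counts given to its longest transcript, which carries the seed match shown above, was 63.8 to 78.6% in WT OB and 79.6 to 84.7% in null OB. The difference of 11.3 percentage points had an exact two-sided permutation p of 0.00216, the smallest that 6 against 6 libraries can give, and an adjusted p of 0.0108 over 5 genes tested. For Spp1, Bglap, Sparc and Alpl, the share of the leading transcript did not pass this test (adjusted p of 0.162 to 0.407). The shares come from estimates over overlapping exons and may move with depth as well as with transcript use, which was not tested.

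Phex was near the detection limit, with 3 to 9 counts a library in WT OB and 13 to 35 in null OB, and the groups did not overlap. On the CPM scale it was at 0.136 to 0.492 in WT OB (median 0.314) and 0.635 to 1.41 in null OB (median 1.22). The log2 fold change was 1.86 ± 0.33 (SE) at an adjusted p of 0.000652, and all 12 fits that left out 1 library kept the call. Phex passed the filter on low counts through the null libraries. Without that filter the log2 fold change was 1.86 in edgeR's test (adjusted p = 0.000797). Nearly all of these counts were given to a 3588-base transcript at the 3′ end of the gene (157162075 to 157165662), with a mean of 5.37 counts in WT OB and 22.1 in null OB. The full-length transcript had means of 0 and 1.89. The values therefore describe reads from the 3′ end.

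Alpl was at 153 to 390 CPM in WT OB (median 163) and 208 to 389 in null OB (median 307). WT replicate 6, at 390 CPM, was above all null libraries, and the other 5 WT libraries were at 153 to 227. With all 12 libraries the log2 fold change was 0.55 ± 0.24 (SE) at an adjusted p of 0.107 and was not called. Without WT replicate 6 it was 0.82, with an adjusted p of 0.00184, and DESeq2 with all 12 libraries gave an adjusted p of 0.0314. The same WT library was also high for Dmp1, at 5.89 CPM against 1.31 to 1.81 in the other 5. It was also high for Col2a1, at 342 CPM against 145 to 197, and for the parathyroid hormone receptor Pth1r, at 36.5 CPM against 14.3 to 23.6. It did not stand apart for Acan, at 56.1 CPM with WT replicate 5 at 60.8, or for Runx2, at 32.0 with WT replicate 2 at 31.6.

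Log2 fold changes in OB followed transcript length across all 13607 genes (Spearman's rho 0.55, a description over genes that are not independent replicates). The osteocalcin genes have the shortest transcripts of the set, with a mean of 411 bases for Bglap and 471 for Bglap2, and their estimates moved most when the trend was removed. With the offset for length, Ibsp was at 0.78 (adjusted p = 0.00935), Phospho1 at 1.74 (adjusted p = 0.000202) and Phex at 1.74 (adjusted p = 0.00284). Over all genes that fit called 2097 genes in place of 4420.

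**Figure D3:**
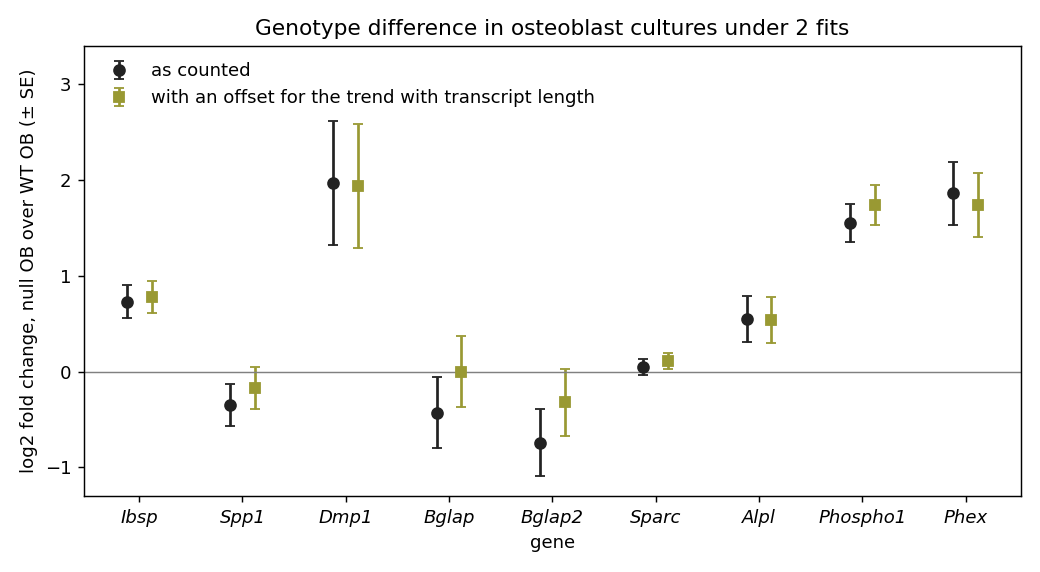
Log2 fold change of null OB over WT OB with its standard error for 9 genes, as counted (black circles) and with an offset for the trend with transcript length (olive squares). Ibsp, Phospho1 and Phex are on the same side in both fits, while Bglap goes from -0.43 to 0.0048.

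The wider machinery of mineralization was read from 6 lists, and for OB from the fit without the offset for length. With that offset 2097 genes were called in place of 4420 over all genes. How it changed the calls in these lists and in the cell type markers was not tested. In the list of phosphate and pyrophosphate handling, 1 of 10 genes tested rose and none fell in null OB. The gene was Smpd3, the sphingomyelinase whose loss in mice impairs bone mineralization, at 3.44 to 16.8 CPM in WT OB and 14.3 to 85.9 in null OB (log2 fold change 2.57, SE 0.48, adjusted p = 0.00195). Its lowest null library was again replicate 4. The median of this list was 0.14, against 0.002 over all genes. Among genes that modify matrix proteins or inhibit mineralization, 3 of 10 rose and 2 fell, with a median of 0.15. Over all genes tested in the same fit, 32.5% were called in either direction. Bmp1, the procollagen C-proteinase that also cleaves Dmp1, rose by a log2 fold change of 0.63 (adjusted p = 0.000779). Galnt3, a glycosylating enzyme that protects Fgf23, rose by 0.74 (adjusted p = 0.00118), and the proprotein convertase Furin by 0.30 (adjusted p = 0.0316). Mgp, the matrix Gla protein that inhibits calcification, had a log2 fold change of -0.48 (adjusted p = 0.00661). Vkorc1, which recycles the vitamin K that osteocalcin and Mgp need, was at -0.24 (adjusted p = 0.0466).

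Receptors of these matrix proteins were higher more often than lower, with 5 of 8 tested called higher and none lower, and a median of 0.35. Over all genes tested in the same fit, without the offset for length, 32.5% were called in either direction and the median was 0.002. Itgav and Itgb3, the chains of the classical osteopontin and bone sialoprotein receptor, had log2 fold changes of 0.75 (adjusted p = 5.41e-06) and 0.76 (adjusted p = 0.000283). Cd44, another osteopontin receptor, was at 0.36 (adjusted p = 0.000236) and the integrin chain Itga4 at 0.33 (adjusted p = 0.00882). Osteoclasts also express Itgb3. Of the 8 osteoclast markers, 3 were called higher and none lower, with a median of 0.31. Their part in the receptor values was not tested.

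Of 10 osteoblast transcription factors and collagen I genes tested, 5 rose in null OB and none fell, with a median of 0.53 beside the same background. Col1a1 and Col1a2, the collagen I chains, rose by 0.83 (adjusted p = 5.56e-05) and 0.58 (adjusted p = 0.000365), Runx2 by 0.55 (adjusted p = 0.00163) and Dlx3 by 1.68 (adjusted p = 0.00425). Dlx3 was scarce, at 0.176 to 0.787 CPM in WT OB and 0.604 to 1.97 in null OB. It passed the filter on low counts through the null libraries, so its direction adds nothing to the count of 5. Of 5 osteocyte genes tested, Cd44 was higher and Pdpn, a marker of young osteocytes, was lower at -0.53 (adjusted p = 0.00144). In the SPARC family, none of 5 genes tested passed in either direction, with a median of -0.03. At 32.5% of all genes called, 1 of 10, 2 of 5 and 0 of 5 are shares near or under the background.

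The genes varied partly together among the osteoblast libraries. After each genotype's mean was removed, the Pearson correlations of log2 CPM over the 12 libraries ran from -0.37 to 0.98 in the 36 pairs of 9 genes, with a median of 0.28, and 29 were above 0. Bglap and Bglap2, which share reads, were at 0.98. Spp1 was at 0.85 with Bglap2 and at 0.81 with Bglap, Ibsp at 0.79 with Bglap and 0.78 with Dmp1, and Alpl at 0.75 with Phospho1. Spp1 with Alpl was at -0.33 and Spp1 with Sparc at -0.37. The points share depth, cell makeup and 12 libraries only, and the values are descriptions. Among 9061 genes at a mean of 10 CPM or more, the closest to Ibsp were the membrane peptidase Mme (0.94) and Uxs1 (0.91). The closest to Spp1 were Pigk (0.93) and Bcap31 (0.89), to Bglap after Bglap2 Pmm2 (0.91), and to Bglap2 after Bglap the growth factor Fgf7 (0.92). Sparc was closest to Col1a2 (0.93) and the collagen galactosyltransferase Colgalt1 (0.92). Alpl and Phospho1 had the same first neighbour, Fgfr3, a fibroblast growth factor receptor, at 0.87 and 0.85. Pth1r followed for Alpl at 0.87 and Tob1 for Phospho1 at 0.81.

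**Figure D4:**
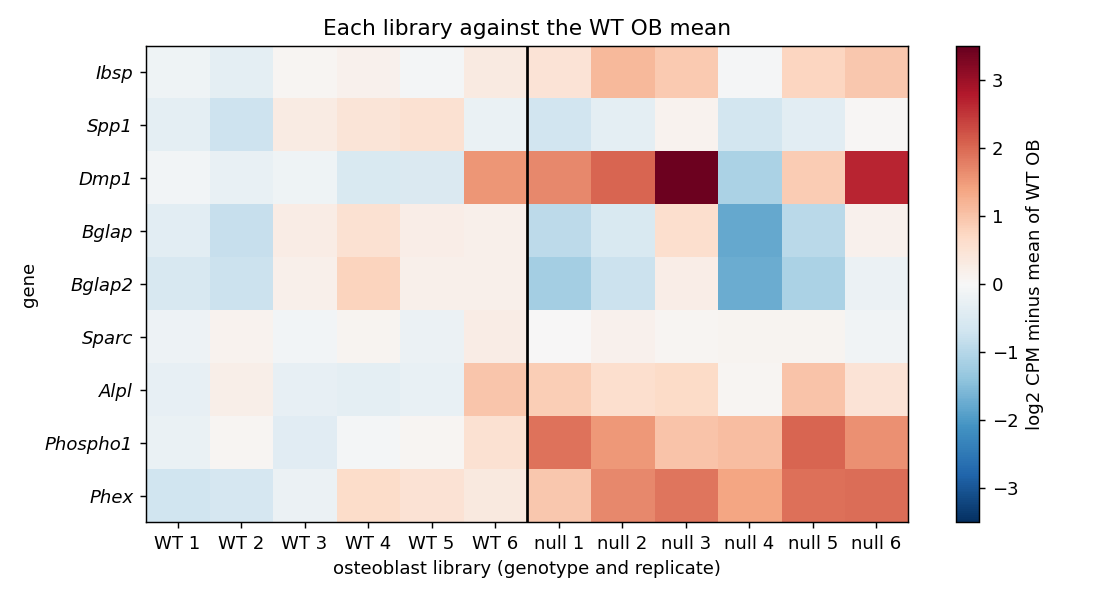
Log2 CPM of 9 genes (rows) in the 12 osteoblast libraries (columns) minus the mean of the 6 WT libraries, red above and blue under that mean. Null replicate 4 is blue for Dmp1, Bglap and Bglap2, and WT replicate 6 is red for Dmp1 and Alpl.

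In macrophage cultures, 4 of the 10 genes had enough counts for a test, and each differed between genotypes (4 of 4, at a background of 52.3% of 11925 genes). Sparc and Phospho1 rose and Spp1 fell in null BMM. Spp1, which macrophages make in quantity, was at 4219 to 6431 CPM in WT BMM (median 4845) and 1601 to 2027 in null BMM (median 1736), with no overlap. Its log2 fold change was -1.53 ± 0.11 (SE) at an adjusted p of 6.47e-09. Sparc, which is typical of mesenchymal cells, was at 0.348 to 2.40 CPM in WT BMM (median 0.944) and 13.1 to 25.2 in null BMM (median 16.0), a log2 fold change of 3.98 ± 0.33 (SE) at an adjusted p of 1.5e-07. Phospho1 was at 0.572 to 0.916 CPM in WT BMM (median 0.742) and 3.22 to 13.1 in null BMM (median 10.2), a log2 fold change of 3.58 ± 0.32 (SE) at an adjusted p of 1.71e-07. Abi3 on the opposite strand was at 30.7 ± 2.69 and 31.2 ± 7.13 CPM in the same libraries (adjusted p = 0.848). That sum combines transcripts with opposite differences, which were not tested singly. The one that overlaps 83.2% of the 1910-base Phospho1 transcript was at 12.5 to 17.8 CPM in WT BMM and 18.2 to 28.6 in null BMM, without overlap and in the direction of Phospho1, and another, which overlaps 10.4% of it, was at 14.7 ± 2.76 and 5.87 ± 3.85 CPM. How reads were divided between Phospho1 and Abi3 there was not tested. The 590-base Phospho1 transcript was at 0.591 ± 0.0988 CPM in WT BMM and 2.07 ± 0.550 in null BMM.

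Phex gave 7 to 30 counts in WT BMM and 2 to 12 in null BMM, a log2 fold change of -0.94 (adjusted p = 0.0426). These counts were given to the transcript at the 3′ end of the gene, and none to the full-length transcript. Only 4 of the 12 fits that left out 1 library kept that call, and the direction was opposite to OB. Ibsp, Dmp1, Alpl, Bglap and Bglap2 gave at most 7 counts in any BMM library, and Mepe none. Other osteoblast markers moved with Sparc in these cultures. The 6 osteoblast markers summed to 10.3 to 27.7 CPM in WT BMM and 54.0 to 129 in null BMM. Of these, 4 of 4 tested were higher (background 52.3%), among them Col1a1 at 15.3 ± 6.11 against 63.1 ± 30.3 CPM. Runx2 was close to the threshold, at a log2 fold change of 0.47 (adjusted p = 0.0492). Bmp1 gave at most 5 counts in any WT BMM library. It passed the filter on low counts through the null libraries, so its direction adds nothing to the count of 4. Sp7 gave at most 1 count in any BMM library. The part of such cells in the Sparc and Phospho1 differences was not tested.

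In osteoclast cultures, 3 of 4 genes tested passed, at a background of 65.6% of 12121 genes. Phospho1 was at 133 to 165 CPM in WT OC (median 160) and 10.7 to 28.2 in null OC (median 13.7), a log2 fold change of -3.29 ± 0.18 (SE) at an adjusted p of 2.62e-10. This is the opposite direction to null OB and null BMM. Abi3 also fell in null OC, from 59.1 ± 2.90 to 31.7 ± 7.04 CPM, by a smaller amount (log2 fold change -0.88, adjusted p = 4.99e-06). The 590-base Phospho1 transcript went from 17.5 ± 1.54 CPM in WT OC to 3.19 ± 0.466 in null OC. Spp1 was at 1201 to 1655 CPM in WT OC (median 1548) and 1782 to 3265 in null OC (median 2335), with no overlap and a log2 fold change of 0.71 ± 0.12 (SE) at an adjusted p of 9.16e-05. Sparc was at 0 to 0.411 CPM in WT OC (median 0.242) and 7.44 to 33.9 in null OC (median 13.4), a log2 fold change of 6.02 ± 0.48 (SE) at an adjusted p of 2.19e-08. In WT OC Sparc gave 0 to 8 counts a library. It passed the filter on low counts through the null libraries, so its direction adds nothing to the count of 3 of 4. Phex did not pass, at -0.65 (adjusted p = 0.10).

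Markers of cell types differed between the same libraries, and their part in these results was not tested. The 8 osteoclast markers summed to 29063 to 31532 CPM in WT OC and 339 to 709 in null OC, and all 8 were lower (background 65.6%). Of these, Calcr gave 0 counts in null OC and 29.8 to 36.4 CPM in WT OC. It passed the filter on low counts through the WT libraries, so its direction adds nothing to this count. The 8 macrophage markers summed to 12266 to 14609 and 48539 to 58043 CPM. The 6 osteoblast markers summed to 12.7 to 15.2 CPM in WT OC and 57.0 to 233 in null OC, with Sp7 at 0 counts in all 6 null libraries. Null OC replicate 6 stood apart from the rest of its group, with the highest Sparc (33.9 CPM), Phospho1 (28.2), Ctsk (221, against 37.0 to 62.7) and Col1a1 (181, against 44.3 to 76.7), and with nearly all of the group's Ibsp. Leaving out any 1 library kept the calls of Spp1, Sparc and Phospho1, with log2 fold changes of 0.61 to 0.81, 5.64 to 6.24 and -3.52 to -3.20.

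The other genes of mineralization also differed in these cultures, at the same backgrounds of 52.3% and 65.6%. In phosphate and pyrophosphate handling, 2 of 9 tested were higher and 6 lower in null BMM, and 2 of 9 higher and 5 lower in null OC. Enpp1, the enzyme that makes pyrophosphate, had a log2 fold change of -1.65 in BMM (adjusted p = 7.88e-07) and of 1.07 in OC (adjusted p = 1.88e-07). Ank, which moves pyrophosphate out of cells, was at -2.31 in OC (adjusted p = 2.45e-12), and the phosphate transporter Slc20a2 at -1.67 (adjusted p = 2.87e-10).

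Among genes that modify matrix proteins, 2 of 8 were higher and 4 lower in null BMM, and 5 of 9 higher and 1 lower in null OC. Bmp1, called higher in both, gave at most 5 counts in any WT BMM library and at most 2 in any WT OC library. It passed the filter on low counts through the null libraries, so its direction adds nothing to these counts. Fam20c, the secretory kinase that phosphorylates the SIBLING proteins, was higher in both, by 1.13 (adjusted p = 9.58e-08) and 2.38 (adjusted p = 5e-15), and was not called in OB at -0.11 (adjusted p = 0.354). Of the receptors, 1 of 8 was higher and 5 were lower in null BMM, and 2 of 8 higher and 4 lower in null OC. Itgb3, an integrin chain abundant on osteoclasts, had log2 fold changes of -1.29 in BMM (adjusted p = 7.69e-06) and -5.37 in OC (adjusted p = 1.74e-16). Its direction in OB was the opposite, and that difference between cell types was not tested.

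RANK-L treatment itself went with opposite changes of these genes in the WT cultures, where 3 of 4 tested were called (background 60.5%). Phospho1 was 209-fold higher in WT OC than in WT BMM by mean CPM (0.744 to 155, log2 fold change 7.68, SE 0.32, adjusted p = 2.02e-16). Spp1 fell by 1.79 on the log2 scale (adjusted p = 8.82e-13) and Sparc by 2.22 (adjusted p = 0.00196), the latter from 1.09 ± 0.747 to 0.233 ± 0.159 CPM. Between null OC and null BMM, 2 of 4 were called at a background of 12.9%. That background falls from 1628 genes to 810 without null BMM replicate 3, to 840 without null BMM replicate 2, to 948 without null BMM replicate 4 and to 1046 without null OC replicate 3. Spp1 rose by 0.47 (adjusted p = 0.0133), a call lost with limma-voom at 0.36 (adjusted p = 0.101). Phospho1 rose by 0.82 (adjusted p = 0.0262). Without null OC replicate 6 the value of Phospho1 was 0.59, with an adjusted p of 0.0576, and without null BMM replicate 2 it was 0.71 with an adjusted p of 0.0698.

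The difference of the genotype effects between the 2 kinds of culture was tested itself and passed for 3 of 4 genes, at a background of 51.4%. For Phospho1 the genotype effect in OC minus that in BMM was -6.86 (SE 0.40, adjusted p = 3.59e-13) on the log2 scale, for Spp1 2.26 (SE 0.17, adjusted p = 1.45e-11) and for Sparc 2.05 (SE 0.67, adjusted p = 0.0134). The Sparc value draws on few WT counts, 28 over the WT OC libraries and 130 over the WT BMM libraries. Between null OC and null BMM Sparc was not called (log2 fold change -0.17, adjusted p = 0.760). For Phex the difference of the genotype effects was 0.29 (adjusted p = 0.664). The 4 groups share libraries across these comparisons, so the contrasts are not independent of each other.

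**Figure D5:**
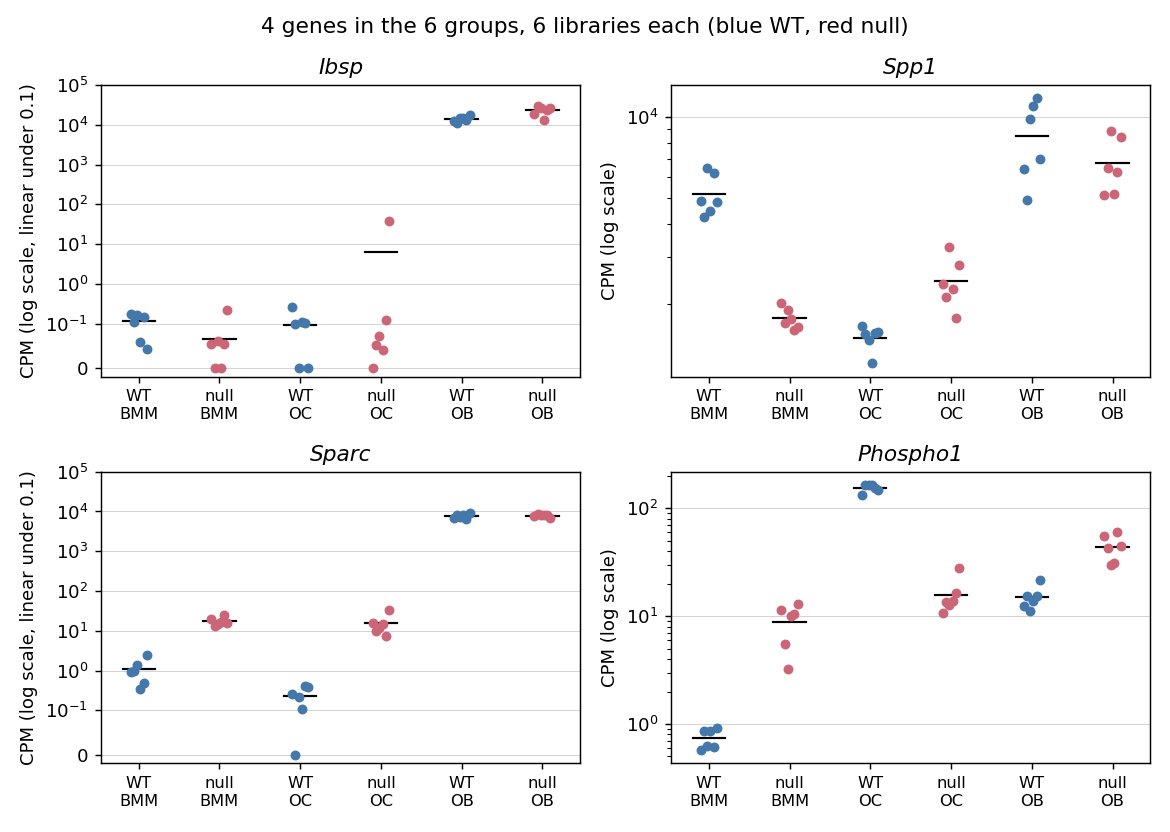
CPM of Ibsp, Spp1, Sparc and Phospho1 in the 6 groups, each point 1 library, bars the mean of 6 libraries, WT in blue and null in red, with log axes (linear under 0.1 for Ibsp and Sparc). Phospho1 is highest in WT OC, and Ibsp is near 0 outside OB except for 1 null OC library at 37.3 CPM.

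Set against the other cell types, most of the genes were far higher in OB, while Spp1, Phospho1 and the 3′ end of Phex were shared with other cultures. All 9 genes tested differed between WT OB and WT BMM (background 76.8%), with 8 higher in OB. All 9 also differed between WT OB and WT OC (background 77.9%), with 7 higher. Ibsp, Dmp1, Alpl, Bglap and Bglap2 gave at most 7 counts in any WT BMM or WT OC library. They passed the filter on low counts through the OB libraries, so their calls as higher in OB followed from that filter. The genes were also chosen as genes of bone mineral, and these counts of calls are descriptions. WT OB held 13810 CPM of Ibsp against 0.116 in WT BMM, where it gave 1 to 3 counts a library, so no fold is given. Sparc, with 130 counts over the WT BMM libraries, was 7018-fold higher in WT OB by mean CPM. Alpl had no count in any WT BMM or WT OC library, and was at least 1321-fold and at least 1385-fold higher in OB, taking 3 counts a library as the floor. Bglap2 was likewise at least 168-fold and 176-fold higher. Dmp1 was at 2.29 CPM in WT OB, 0.109 in WT BMM (13 counts in all) and 0.0776 in WT OC (10 counts in all).

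Spp1, Phospho1 and reads from the 3′ end of Phex were shared with the macrophage lineage. Spp1 in WT OB was 1.64-fold that in WT BMM and 5.66-fold that in WT OC, and individual WT OB libraries (4917 to 11776 CPM) overlapped those of WT BMM (4219 to 6431). Phospho1 in WT OB was 20.1-fold that in WT BMM and 0.0963-fold that in WT OC. Phex was lower in WT OB than in both, at 0.354-fold of WT BMM and 0.367-fold of WT OC, with 35 counts over the 6 WT OB libraries. Nearly all Phex counts in WT BMM and WT OC were given to the 3588-base transcript at the 3′ end, with means of 17.0 and 15.6. The full-length transcript had means of 0 and 0.378 counts, so these values do not describe full-length Phex.

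The genotype effect in OB differed from that in OC for 6 of the 9 genes tested, at a background of 55.2%. For Phospho1, which was higher in null OB and lower in null OC, the difference was 4.86 (SE 0.32, adjusted p = 5.66e-15) on the log2 scale. For Sparc, with 28 counts over the WT OC libraries, it was -5.95 (SE 0.50, adjusted p = 3.33e-12). For Phex it was 2.52 (SE 0.50, adjusted p = 4.99e-05) and for Spp1 -1.04 (SE 0.24, adjusted p = 0.000358). For Ibsp it was -5.08 (adjusted p = 0.0108) with all libraries and 1.47 (adjusted p = 0.243) without null OC replicate 6, so this call rests on that library. For Bglap2 it was -4.50 (adjusted p = 0.0488), from 9 counts in null OC and 0 in WT OC, and 9 of 24 fits that left out 1 library kept it. For Alpl (adjusted p = 0.192), Dmp1 (adjusted p = 0.0570) and Bglap (adjusted p = 0.389) the difference did not pass.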

How the data were processed

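RNA was measured in 36 libraries of cultured mouse bone cells. Each deposited file lists transcripts with their length, estimated counts and TPM (relative transcript levels), both as the authors computed them. Per the submitters' processing notes, the tools were kallisto and DESeq2 and the build GRCh38, which is a human name; versions, parameters and strand settings are not given in the sources used here. Total RNA was isolated with a mirVana kit and libraries made with a NEB low input kit, per the labels' protocols.

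The deposited estimated counts and TPM were summed over each gene's Ensembl transcripts with GENCODE M21, to which 97.5% of 88198 transcripts matched; the rest held 0.63 to 0.97% of the counts. Sums were rounded and fitted with edgeR 4.0.16 in R 4.3.3 (filterByExpr, TMM scaling, robust quasi-likelihood test), with Benjamini-Hochberg adjustment over all genes tested and a threshold of 0.05. Each genotype comparison used the 12 libraries of its cell type, RANK-L contrasts 24 libraries, and contrasts with OB across cell types all 36. Standard errors are the log2 fold change over the square root of F. CPM are scaled by TMM over all 36 libraries. Precision at low counts is set by depth, and the estimated counts carry the quantifier's own uncertainty, which these values do not show. Shares were compared by exact permutation tests in Python 3.11.15 with SciPy 1.17.1. The fit was tested on simulated data. Alternatives were DESeq2 1.42.0, limma 3.58.1 voom weights, other scaling and filters, a replicate block, a length offset and leaving out each library. The contrast of genotype effects in OC and BMM and the fit without null OC replicate 6 were added after seeing the data.

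All 10 members are named whatever their result, and from each list at most 4 called genes in each direction by smallest p. Other names, such as Abi3 and the genes that stand apart with a library, were chosen after their values were seen. The members and lists were chosen with earlier results of these data known.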

Additional observations from a re-analysis of the deposited data

Results flagged for a closer look

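In 8 of 46 sets of 6 libraries (a member in a group), the highest library stood apart from the other 5 by Dixon's 95% criterion. Chance meets it in about 1 in 20 sets only where values are normally distributed and sets are independent. Sets here share libraries and some hold few counts, so the 8 cannot be compared with that rate. In null OC, replicate 6 was the highest for Ibsp (37.3 CPM), Sparc (33.9 CPM) and Phospho1 (28.2 CPM), so 3 of the 8 come from 1 library. In WT OB, replicate 6 was the highest for Alpl (390 CPM) and Dmp1 (5.89 CPM). The other 3 rest on 4 to 7 counts in 1 library, namely Ibsp in null BMM replicate 6 (0.226 CPM), Bglap2 in null OC replicate 1 (0.318 CPM) and Dmp1 in WT OC replicate 3 (0.266 CPM).

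The genotype effect differed between cell types in 9 cases by the edgeR test of the difference itself, in log2 units. OC minus BMM was 2.26 for Spp1, 2.05 for Sparc and -6.86 for Phospho1. OB minus OC was 4.86 for Phospho1, -5.95 for Sparc, 2.52 for Phex, -1.04 for Spp1, -5.08 for Ibsp and -4.50 for Bglap2. The Ibsp value became 1.47, with an adjusted p of 0.243, without null OC replicate 6, and the Bglap2 value rests on 9 counts in null OC. Both Sparc values draw on 28 Sparc counts over the WT OC libraries.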

How the results depend on the processing

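Of 424 log2 fold changes of single genes recomputed under another setting, 401 kept their direction and side of the threshold, as did 792 of 837 with 1 library left out. Of the others, 15 and 33 lost the call, 4 and 7 gained one, and 4 and 5 changed sign. The sign changed for Bglap in OB with the length offset (0.0048), for Phex in WT OC against WT BMM with that offset (0.02) and without 1 of 4 libraries (0.01 to 0.09, in a range of -0.25 to 0.09 over the 12), and, for OB minus OC, for Ibsp (0.20) and Bglap (-0.05) with limma-voom and for Ibsp without null OC replicate 6 (1.47, in a range of -5.67 to 1.47 with 1 library left out). Genes called in null OB against WT OB went from 4420 to 2097 with the length offset and 1766 with that offset and the replicate block. For null OC against null BMM, limma-voom called 1013 genes and 1 member (Phospho1, with Spp1 lost) in place of 1628 and 2, and leaving out 1 library gave 810 to 2143 genes and 1 to 2 members. Without the filter on low counts, 5 members passed in null OC against WT OC. The Alpl transcript share differed by 0.843 percentage points on TPM (exact permutation p = 0.0195); with 1 library left out, share differences ran over 0.0586 to 0.109 for Alpl, 0.635 to 1.16 for Sparc and 2.89 to 4.68 for Bglap of Bglap plus Bglap2.

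Same-numbered libraries deviated together little. For WT OB with null OB, r was -0.119 to 0.149, and 2 of 6 were best with their own number. For WT BMM with WT OC, r was -0.052 to 0.091 and 3 of 6 were, and for null BMM with null OC -0.196 to 0.056 and 1 of 6. Between genotypes of BMM and of OC none were. The main fits used no pairing, and such weak correlations cannot show whether same-numbered libraries share mice. With a replicate block, null OB against WT OB called 4085 genes and the same number of members (4), with Ibsp at 0.70, Dmp1 at 1.76, Phex at 1.86 and Phospho1 at 1.53. The block ended the call of Phex in BMM (adjusted p = 0.0673) and of Bglap2 in OB minus OC (0.0516), and brought Dmp1 in OB minus OC past the threshold (0.0422). Where the filter, offset or number of samples differs, fewer genes, other trends or fewer libraries enter the fit; the cause of each changed value was not tested. Depth limits Mepe in every group, and Ibsp, Dmp1, Alpl, Bglap and Bglap2 outside OB.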
